A study of Mus musculus with 2 samples.

Results

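Distal intergenic EP300 peaks are sites of EP300 occupancy that lie between protein-coding genes, at some distance from the nearest start. They were chosen from the optimal set of the irreproducible discovery rate (IDR), the longer of the authors' lists of peaks kept for reproducibility. A peak was a member where its summit lay over 10 kb and at most 100 kb from the nearest protein-coding transcript start of GENCODE release M21, outside every protein-coding gene body, and over 1 kb from the start of any non-coding gene. By this rule 1263 of the 7737 optimal peaks were members. The rule used position alone, so peak strength, sequence and neighbours are measures that it did not use. The study mapped EP300 by ChIP-seq, the sequencing of DNA recovered with an EP300 antibody, in stomach tissue of B6NCrl mice at postnatal day 0. The animals of the study's single group carried no listed transgene, deletion or treatment, and their sex was not collected. The group holds 2 libraries, labelled biological replicates 1 and 2, which share a biosample and a donor label, so the spread between them may be technical. Whole stomach mixes epithelium, muscle, connective tissue, nerve and blood cells, and a peak cannot be assigned to one of them. More cells with a site in use and more EP300 per cell cannot be told apart.

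EP300 is a histone acetyltransferase that is brought to DNA by transcription factors and acetylates histone H3 on lysine 27 and other residues. It is found at active promoters and, together with the related CREBBP, at enhancers, which can act on a gene from many kilobases away. Sequence-specific factors of the AP-1, Kruppel-like, forkhead, TEAD and nuclear receptor families are among those known to recruit it. The glucocorticoid receptor is a nuclear receptor that binds a palindromic element and recruits EP300 when hormone is present. In the stomach, EP300-bound enhancers are known to serve both the epithelium and the surrounding mesenchyme.

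The summit base and 100 bases on each side of it are shown for the strongest pair of members, and for a strong member with each of 5 of the motifs that stood highest over the flanking sequence: the strongest with that motif that was not already shown. They show how close such a match can lie to the point of highest occupancy, which is the base at position 101. All are from the + strand of mouse GRCm38 (mm10). Capitals mark the motif for which the member is shown. The Ets2 member lies at chr16:95659519-95659719, and none of the motifs described below as more frequent at summits matched there. The Nufip1 member, at chr14:76149631-76149831, has a glucocorticoid receptor palindrome centred 29 bp past the summit, and the Ddit4 member, at chr10:59974168-59974368, has one 12 bp past it. The Mboat1 member (chr13:30109359-30109559) has an AP-1 match 12 bp from the summit. The Irf2bp2 member (chr8:126666554-126666754) holds 2 full NFI palindromes, the Frmd8 member (chr19:5846653-5846853) a STAT match, and the member nearest to 1700001O22Rik (chr2:30712194-30712394) a CRE.
Ets2: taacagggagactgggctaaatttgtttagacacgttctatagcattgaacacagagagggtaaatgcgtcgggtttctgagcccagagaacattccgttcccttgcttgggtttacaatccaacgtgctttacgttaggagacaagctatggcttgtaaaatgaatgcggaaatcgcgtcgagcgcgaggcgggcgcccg
Nufip1: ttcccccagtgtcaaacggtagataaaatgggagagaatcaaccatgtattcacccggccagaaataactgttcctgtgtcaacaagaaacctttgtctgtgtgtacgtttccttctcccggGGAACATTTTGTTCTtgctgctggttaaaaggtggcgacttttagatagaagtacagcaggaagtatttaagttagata
Ddit4: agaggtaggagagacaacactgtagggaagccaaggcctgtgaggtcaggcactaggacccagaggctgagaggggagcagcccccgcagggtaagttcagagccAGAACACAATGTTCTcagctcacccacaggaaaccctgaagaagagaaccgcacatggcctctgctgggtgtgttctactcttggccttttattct
Mboat1: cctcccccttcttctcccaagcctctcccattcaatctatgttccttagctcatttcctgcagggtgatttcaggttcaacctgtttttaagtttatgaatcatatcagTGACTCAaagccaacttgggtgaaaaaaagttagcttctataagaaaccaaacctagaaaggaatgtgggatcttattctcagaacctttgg
Irf2bp2: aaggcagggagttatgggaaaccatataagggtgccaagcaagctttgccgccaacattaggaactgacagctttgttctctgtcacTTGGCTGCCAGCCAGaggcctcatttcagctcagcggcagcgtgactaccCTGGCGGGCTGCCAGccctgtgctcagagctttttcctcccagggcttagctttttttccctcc
Frmd8: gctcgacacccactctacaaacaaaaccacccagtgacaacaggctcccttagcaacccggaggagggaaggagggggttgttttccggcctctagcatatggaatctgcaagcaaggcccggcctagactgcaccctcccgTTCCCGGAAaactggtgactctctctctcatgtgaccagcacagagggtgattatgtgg
1700001O22Rik: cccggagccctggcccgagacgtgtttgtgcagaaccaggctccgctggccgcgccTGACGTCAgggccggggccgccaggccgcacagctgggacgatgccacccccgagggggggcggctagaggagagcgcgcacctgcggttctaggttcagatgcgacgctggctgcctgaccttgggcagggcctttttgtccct

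Members made up 16.3% of the 7733 optimal summits on the named chromosomes (exact 95% interval 15.5% to 17.2%). The DNA that meets the same position rule came to 576 Mb, or 21.7% of the sequenced bases. Distal intergenic DNA thus held 2.19 EP300 summits per Mb. Distal introns at the same distance range held 2.29 per Mb, DNA beyond 100 kb of any start 0.772 per Mb, and DNA 1 to 10 kb from a start 3.13 per Mb. Within the distal intergenic class the density fell with distance. It was 2.66 per Mb at 10 to 20 kb (334 members), 2.53 per Mb at 20 to 50 kb (589 members) and 1.57 per Mb at 50 to 100 kb (340 members). The median member lay 33915 bp from the nearest start, with quartiles at 19445 and 52222 bp. Members were spread over both sides of the gene as the DNA is: 64.0% were upstream of the nearest start, as was 63.3% of the DNA that meets the rule.

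**Figure D1:**
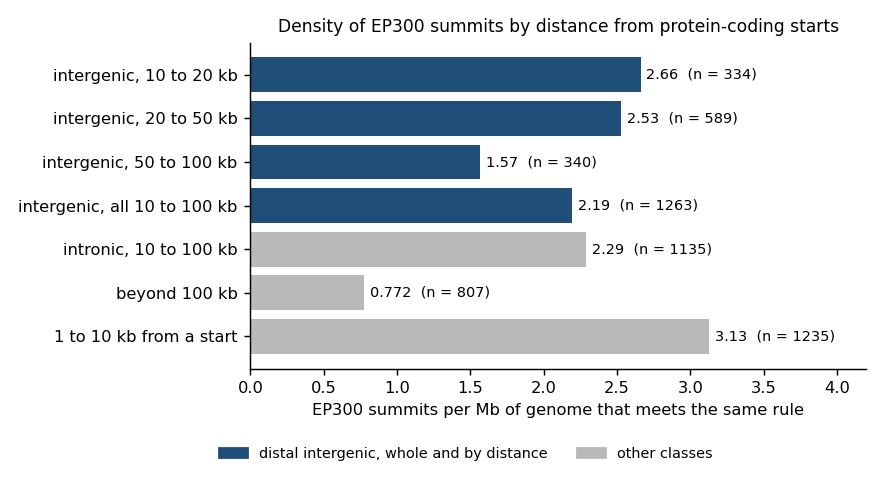
Density of EP300 summits (horizontal axis, summits per Mb of genome that meets the same rule) for distal intergenic peaks in all and in 3 distance ranges (dark bars), and for the other classes of peaks (grey bars), with the number of peaks beside each bar. The density of distal intergenic peaks falls from 2.66 per Mb at 10 to 20 kb to 1.57 per Mb at 50 to 100 kb, which is above the 0.772 per Mb beyond 100 kb.

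Other positions were less even. Member summits lay in soft-masked repeats in 141 cases (11.2%), where 41.5% of the DNA that meets the rule is masked. Peaks in distal introns did so in 10.7% of cases, a share that could not be told from that of members (log2 odds ratio 0.06, 95% interval -0.32 to 0.44, two-sided Fisher's exact test, adjusted p = 0.794). The counts of DNA took in all sequence outside assembly gaps. How well reads can be placed in repeats or on each chromosome was not tested. Bodies of non-coding genes held 204 members, or 16.2%, against 9.68% of the DNA. The host with most members was Carmn, a long non-coding RNA gene known from muscle cells, with 5, followed by Bvht, Gm47071, Mir99ahg and Junos, the antisense gene beside Jun, with 4 each. The X chromosome held 7 members, 0.554% of all (95% interval 0.223% to 1.14%), though 8.79% of the DNA that meets the rule lies on it. The same was seen over the whole optimal set, with 70 summits on X or 0.905%, so the scarcity on X was not tested as a property of this class. Among the autosomes the density ran from 1.57 per Mb on chromosome 7 to 3.83 per Mb on chromosome 15. At the edges of the rule, the 37 members 10 to 11 kb from a start had a median signal of 29.3, and the 40 peaks 9 to 10 kb away had 29.9. The 24 members at 95 to 100 kb had a median of 28.3, and the 32 peaks at 100 to 105 kb had 32.2.

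The signal value, which measures how strongly a peak stands out on the authors' own scale in each list, was of similar size in both replicates. In the pooled list the members ranged from 7.84 to 146 with a median of 29.6. In replicate 1 the 1184 members with a summit of that list inside had a median of 16.4, and in replicate 2 the 1198 such members had a median of 16.1. Both libraries had a summit inside 1128 members (89.3%), while 56 had one in replicate 1 only, 70 in replicate 2 only and 9 in neither. Those 1128 members had a median pooled signal of 30.8, the 9 without either a median of 9.99. Among as many strongest peaks of each replicate as the optimal set holds, 501 members (39.7%) were found in both. Across the 1128 members the replicate signals correlated with Pearson's r = 0.382 and Spearman's rho = 0.313. These points share their libraries, and members of 1 locus can share a peak. The promoter peaks of the same libraries gave r = 0.654 over 2590 peaks. Peaks in distal introns gave r = 0.240, those beyond 100 kb 0.202 and those 1 to 10 kb from a start 0.245. The ratio of replicate 1 to replicate 2 had a median of -0.03 on the log2 scale and an SD of 0.73 across members. The order of members by signal thus differed between the 2 libraries.

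**Figure D2:**
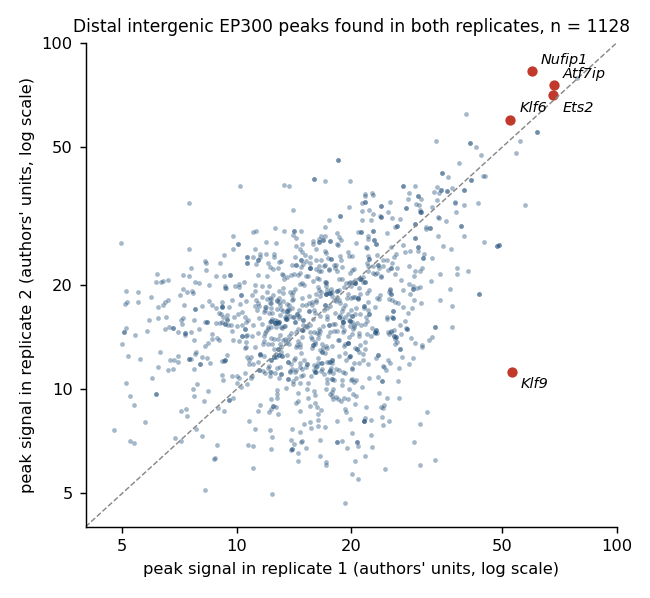
Signal of the 1128 distal intergenic peaks with a summit in both replicates, in the authors' units, replicate 1 on the horizontal and replicate 2 on the vertical log axis; each point is a peak and the dashed line marks equal values. The members with the highest pooled signal that are marked in red (Ets2, Nufip1, Atf7ip and Klf6) are high in both, the bulk forms a cloud with r = 0.382, and the strongest Klf9 member stands at 52.97 in replicate 1 and 11.2 in replicate 2.

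In strength the members did not differ detectably from the other classes of distal and near peaks. The pooled median of all optimal peaks was 30.2, and 601 members (47.6%) lay above it. The share was 45.2% for peaks in distal introns (log2 odds ratio 0.14, 95% interval -0.10 to 0.38, exact test, adjusted p = 0.377). It was 48.2% for peaks beyond 100 kb (-0.04, -0.30 to 0.23, adjusted p = 0.787) and 45.2% for peaks 1 to 10 kb from a start (0.14, -0.09 to 0.37, adjusted p = 0.377; two-sided Fisher's exact tests adjusted over 3 classes). With 1 peak per run of overlapping peaks the members stood above the intronic class (log2 odds ratio 0.33, exact test, adjusted p = 0.0411). Among the 7737 strongest peaks of replicate 1, the 1187 that met the rule stood above the intronic class (0.33) and the class beyond 100 kb (0.36, exact tests, both adjusted p = 0.0117). By the replicate 1 signal of the members themselves these ratios were 0.15 and 0.14 (exact tests, both adjusted p = 0.490). By their replicate 2 signal they were 0.25 and 0.09 (exact tests, adjusted p = 0.129 and 0.563). The conservative IDR set, the authors' stricter list, covered 834 member summits (66.0%) and 62.1% of those in distal introns. This difference had an exact p of 0.0497 by itself and an adjusted p of 0.0825 over 3 classes, and so did not pass. All these tests treat peaks as separate, although the 1263 members formed 1023 runs of overlapping peaks, and they compare peaks of these libraries, not animals.

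The sequence at the summits carried motifs of a few factor families, led by AP-1, GRHL and the glucocorticoid receptor. Each of 44 consensus motifs was searched on both strands within 100 bp of the 1263 summits and in a window of the same size 1000 bp away. By the exact McNemar test with Benjamini-Hochberg adjustment, 15 motifs (34.1%) were more frequent at summits and 1 (2.27%) was less frequent. These tests, and those between classes below, treat summits as separate, although the members formed 1023 runs of overlapping peaks that can share a match. They compare peaks of these libraries, not animals. With 1 peak per run 16 motifs were more frequent, 13 of them among the 15. The AP-1 element TGACTCA, bound by Fos and Jun dimers that are induced early after a stimulus, was found at 204 summits (16.2%) and in 56 flanks (4.43%), with an adjusted p of 5.78e-21. Of all optimal peaks 9.74% held it, and of promoter peaks 3.39%. Peaks beyond 100 kb held it in 15.6%, those in distal introns in 12.9% and those 1 to 10 kb from a start in 11.7%. The GRHL element AACNGGTT, bound by the Grainyhead-like factors of surface epithelia, was found at 98 summits (7.76%) and in 17 flanks (1.35%), exact test, adjusted p = 1.27e-14. It was found in 4.85% of all optimal peaks.

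The glucocorticoid receptor palindrome was found at 39 summits (3.09%) and in 3 flanks (0.238%), a ratio of 13 (exact test, adjusted p = 8.26e-08). Over all optimal peaks its share was 1.63%, and at promoter peaks 0.271%. Among the other distal classes it was 3.35% beyond 100 kb and 2.47% in distal introns, so a share of this size was not particular to members. The KLF element CCACACCC, a site of Kruppel-like factors, was found at 65 summits and in 19 flanks (5.15% and 1.504%, exact test, adjusted p = 2.92e-06). It was found in 3.40% of all optimal peaks and in 4.76% of those in distal introns. The forkhead element TGTTTAC was found at 72 summits and in 27 flanks (5.70% and 2.14%, exact test, adjusted p = 4.00e-05). The single NFI site TTGGCA was found at 220 and 130 (17.4% and 10.3%, exact test, adjusted p = 2.92e-06). AP-1, GRHL, the glucocorticoid receptor, KLF, FOX and the single NFI site passed under each of the 14 alternatives tried.

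Other calls were lost under some of the alternatives. The full NFI palindrome, which can contain the single site, was found at 10 summits and in no flank (exact test, adjusted p = 0.00716). For the CRE TGACGTCA, a site of CREB and ATF factors, the counts were 10 and 1 (exact test, adjusted p = 0.0344). For the STAT element TTCCNGGAA, bound by cytokine-activated STAT factors, they were 22 and 6 (exact test, adjusted p = 0.0117). The CArG box, the site of serum response factor, was found at 32 and 9 (exact test, adjusted p = 0.00129). CRE passed under none of the 14 alternatives, while STAT was lost under 9 of them and full NFI and CArG under 8 each. The TEAD element CATTCCA, bound by the DNA partners of the YAP co-activator, was found at 87 summits and in 43 flanks (6.89% and 3.40%, exact test, adjusted p = 0.000531), and the TFAP2 element GCCNNNGGC at 87 and 38 (adjusted p = 4.26e-05), and each was lost under 1 alternative. The remaining motifs that were more frequent were MAF and NRF2 (TGACNNNGC, which can share its first bases with AP-1), the p53 family site and the E-box CAGCTG, with ratios of 1.65, 1.55 and 1.40; they were lost under 2, 4 and 6 alternatives. The E-box CATATG was less frequent, at 42 summits and in 68 flanks (exact test, adjusted p = 0.0406), and was lost under 8 alternatives. Among the motifs that did not pass were CTCF (11 and 4), GATA (42 and 35), SOX (30 and 36) and HNF4 (3 and 6). The summit windows were richer in G and C than the flanks, at a mean of 48.4% ± 7.78 and 45.4% ± 7.27 (SD across 1263 windows), and less masked as repeats, at 9.87% and 27.3% of their bases. The part of base composition in the motif counts was not tested. With mostly masked windows left out, 11 of the 15 motifs passed, and CRE, full NFI, STAT and the E-box CAGCTG did not.

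**Figure D3:**
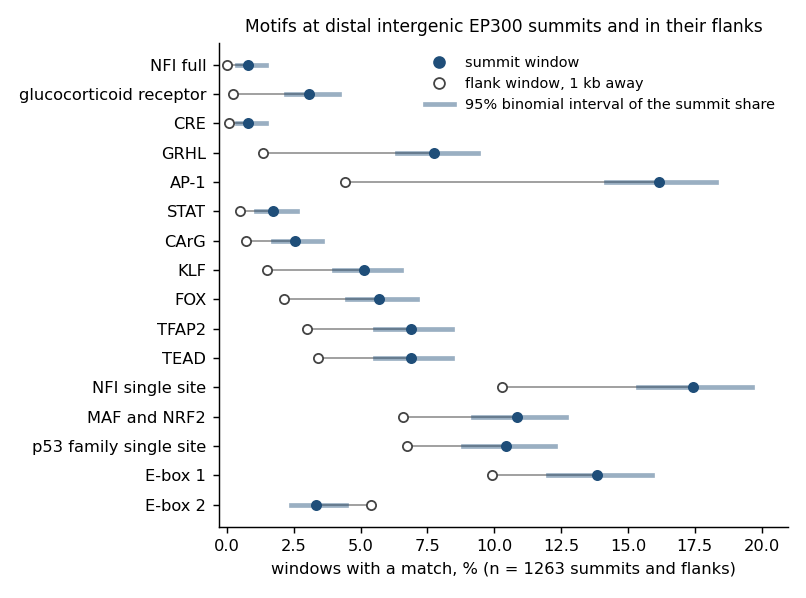
Share of windows with a match to each of the 16 motifs that differed between the summits of 1263 distal intergenic peaks (filled points, with the exact 95% binomial interval as a thick line) and flank windows 1 kb away (open points), in percent. E-box 1 is CAGCTG and E-box 2 CATATG; AP-1 shows the widest gap, at 16.2% and 4.43%, and E-box 2 is the one motif with the flank point on the right.

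At least 1 of the 8 motifs with the highest ratios (full NFI, glucocorticoid receptor, CRE, GRHL, AP-1, STAT, CArG, KLF) was found at 420 member summits, or 33.3%, and in 110 flanks, or 8.71%. Members with 2 or more of them numbered 58, against 1 flank. Some motifs were concentrated at the summit and others were not. Within 100 bp, where an even spread gives a median near 50 bp, the median match of the glucocorticoid receptor motif was 22 bp from the summit, that of GRHL 28.5 bp, of KLF 41.5 bp and of AP-1 50 bp. Within 25 bp the AP-1 element was found 1.12 times per kb searched, and 500 to 1000 bp away 0.210 times. For GRHL these densities were 0.683 and 0.0800 per kb, and for the glucocorticoid receptor motif 0.326 and 0.00950 per kb. Full NFI, CRE and CArG were no denser within 25 bp (0.0466, 0.0155 and 0.124 per kb) than over the whole 100 bp (0.0473, 0.0394 and 0.126 per kb), with median distances of 60.5, 46 and 51.5 bp. For no pair of the 8 motifs did the share with 1 motif differ after adjustment between members with and without the other (Fisher's exact tests, lowest unadjusted p = 0.0145, for AP-1 with KLF in 18 members, adjusted p = 0.406). Several of the motifs were rare, with 10 members each for full NFI and CRE, so these tests could miss all but large differences.

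**Figure D4:**
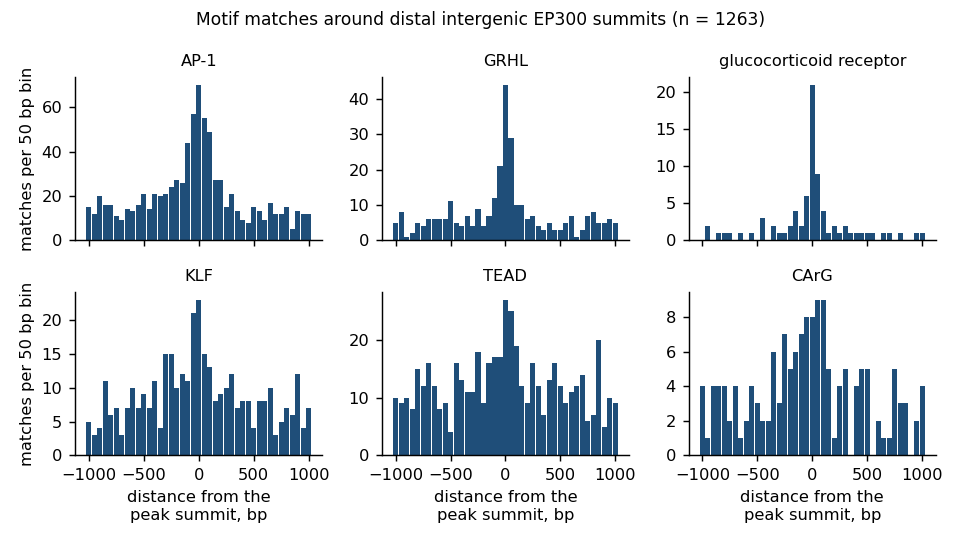
Number of motif matches per 50 bp bin (vertical axis, a scale of its own for each motif) by distance of the match from the summit in bp (horizontal axis), summed over 1263 distal intergenic peaks. Matches of the glucocorticoid receptor motif and GRHL crowd into the bins at the summit, with 21 and 44 matches within 25 bp, AP-1 forms a wider mound, and TEAD and CArG stand less far above their surroundings.

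Members with a GRHL match lay above the median signal more often than the others. Of 98 such members 74.5% lay above the median signal of the optimal set, and of the 1165 others 45.3% (log2 odds ratio 1.80, 95% interval 1.12 to 2.55, two-sided Fisher's exact test adjusted over 16 motifs, p = 3.65e-07). Their median signals were 34.3 and 29.0 in the pooled list, 18.4 and 16.1 in replicate 1, and 16.9 and 16.1 in replicate 2. The gap was thus in the same direction in both libraries and smaller in replicate 2. These tests of strength by motif treat peaks as separate, although 466 members (36.9%) lay in runs of overlapping peaks. Of the 42 members with a signal under 10, 37 lay in such runs. The tests were not repeated with 1 peak per run. Among the 39 members with the glucocorticoid receptor motif 69.2% lay above that median, against 46.9% of the others (log2 odds ratio 1.32, 0.30 to 2.48), which did not pass after adjustment (exact test, p = 0.0670). Members with AP-1 did so in 51.5% and those without in 46.8% (log2 odds ratio 0.27, -0.18 to 0.72, exact test, adjusted p = 0.628), so no difference was detected for the motif with most matches among those 8.

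The motif content of the members did not differ detectably from that of the other classes. Over 132 tests no motif passed, while 2 had an unadjusted p under 0.05 against distal introns, 6 against peaks beyond 100 kb and 6 against peaks 1 to 10 kb from a start (two-sided Fisher's exact tests). The smallest adjusted p was 0.0607, shared by 3 motifs in the comparison with peaks 1 to 10 kb away. AP-1 was found in 16.2% of members and 11.7% of those peaks (log2 odds ratio 0.54, 95% interval 0.21 to 0.89), and the glucocorticoid receptor motif in 3.09% and 1.21% (1.34, 0.47 to 2.35). The GC box GGGGCGGGG of SP factors, a promoter element, was found in 1.35% and 3.32% (-1.31, -2.25 to -0.47). Without mostly masked windows these 3 and the TCF and LEF element ATCAAAG passed. Against peaks beyond 100 kb the FOX element was found in 5.70% of members and 8.92% of the others (-0.70, -1.21 to -0.18), and KLF in 5.15% and 2.602% (1.00, 0.28 to 1.82), both with an adjusted p of 0.0977. Against distal introns AP-1 came closest, at 16.2% and 12.9% (0.38, 0.04 to 0.73, exact test, adjusted p = 0.249). The mean G and C content of the members, 48.4%, lay between that of the peaks 1 to 10 kb from a start (50.1%) and those in distal introns (46.4%) or beyond 100 kb (43.9%).

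The strongest members stood near genes of several kinds, and 18 members were among the 300 strongest of all optimal peaks, 6% of these, where members made up 16.3% of all summits. The first lay 42456 bp upstream of Ets2, an ETS family transcription factor, with a signal of 146 in the pooled list, 68.1 in replicate 1 and 70.4 in replicate 2. The member 38840 bp downstream of the start of Nufip1, which codes for an RNA-binding protein, had 142, 59.7 and 82.6. The member 37495 bp upstream of Atf7ip, a partner of the histone methyltransferase SETDB1, had 138, 68.2 and 75.4. All 3 were far above the member median in both libraries. Klf6, a zinc finger factor of the early response, had its strongest member 19868 bp upstream (113, 52.4 and 59.9), and Fos, the AP-1 subunit, 58833 bp downstream of its start (86.9, 45.002 and 41.1).

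Of the 15 strongest members, 3 hold a glucocorticoid receptor palindrome, those of Nufip1, Ddit4 and Tsc22d3. The member 22434 bp upstream of Ddit4, an inhibitor of the mTORC1 kinase, had a signal of 89.4, 41.1 in replicate 1 and 51.4 in replicate 2. The member 37234 bp downstream of the start of Tsc22d3, the glucocorticoid-induced leucine zipper gene, had 86.4, 33.4 and 52.1. Both stood well above the member median in each library. Pdk4, a kinase that restrains glucose oxidation, had a member 13669 bp upstream with 86.0, 43.8 and 47.5 and no such match. The members nearest to Mboat1 (an acyltransferase of phospholipids) and Atp11b (a phospholipid flippase) hold both a GRHL and an AP-1 match, with pooled signals of 96.8 and 93.8. Irf2bp2, a co-repressor, had a member of 94.3 at 72668 bp upstream, and Krt42, a type I keratin, one of 103 at 19356 bp. The member nearest to Cryaa, the lens crystallin gene, had a signal of 86.0 and no summit of replicate 1 inside; at 152 bp it was narrower than the full width of 560 bp, as were those of Ets2 and Nufip1 and 5 members in all.

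The label of a nearest protein-coding gene can hide a closer non-coding one. The member named after Frmd8, a regulator of cell surface proteolysis, with 96.3, 61.5 and 55.3, lay 1273 bp from the RefSeq start of Neat1, the RNA scaffold of paraspeckles. The Krt42 member given above lay in the body of the antisense gene Gm14206, 639 bp from a RefSeq start of that gene. The strongest Fos member lay in the body of the long non-coding RNA gene Gm32296. In all, 39 members (3.09%) were 1 to 2 kb from a GENCODE non-coding start. The RefSeq annotation of the same build places a transcript start within 1 kb of 90 members (7.13%), of which 74 were predicted non-coding transcripts and 1 a curated coding one. These 90 had a median signal of 30.01, and the other 1173 had 29.5. RefSeq starts were more frequent at members than at peaks in distal introns (3.96%, log2 odds ratio 0.89, 95% interval 0.35 to 1.46, two-sided Fisher's exact test, adjusted p = 0.00145) or beyond 100 kb (2.73%, adjusted p = 2.76e-05), and less frequent than at peaks 1 to 10 kb from a coding start (9.72%, adjusted p = 0.0210). How many RefSeq starts the DNA of each class holds was not counted. The last 2 classes also differ from members by definition in their distance from coding starts. These tests thus cannot separate the peaks from the annotation around them.

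Most members stood alone, and a minority had close neighbours. Another separate optimal peak lay within 12.5 kb of 27.2% of members, as it did for 18.96% of peaks beyond 100 kb (log2 odds ratio 0.68, 95% interval 0.36 to 1.00, two-sided Fisher's exact test, adjusted p = 2.24e-05) and for 24.1% of those in distal introns (0.23, -0.04 to 0.51, adjusted p = 0.0839). Peaks 1 to 10 kb from a start, which lie by their definition near promoters, had one in 40.3%. Any optimal peak counted as a neighbour, promoter peaks included. By their definition peaks beyond 100 kb cannot have a coding promoter peak so near, and members close to 10 kb can. The test against that class thus cannot separate grouping from position. Neighbours also count each other, so the peaks in these tests were not separate. Linking members within 12.5 kb gave 896 groups, of which 805 held 1 run of overlapping peaks and 23 held 3 or more, with 109 members. The largest lay on chromosome 18 between Il17b, which codes for a cytokine, and Csnk1a1, a casein kinase, where 17 members in 10 runs spanned 50.9 kb and 9 lay in non-coding gene bodies. Its top signal was 74.7. The next held 6 members beside Gm9887, a predicted gene. Smaller groups had 4 members beside Grhl2, and 5 each within 5.27 kb beside Atf7ip and 4.83 kb beside Klf6.

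In all, 805 of 21853 protein-coding genes (3.68%) were the nearest gene of at least 1 member, and 2054 (9.4%) had a start within 100 kb of one. The nearest gene is a label of position, and whether a peak acts on it was not measured. Of the 805 genes, 533 had 1 member, 179 had 2, and 19 had 5 or more. A promoter peak was present at 163 of them (20.2%), at 9.90% of all genes and at 15.9% of the 719 genes nearest to a distal intronic peak. Of these 719 genes, 68 also had a member. Il17b had most members, 13 in 7 runs, followed by Gm9887 with 8. Klf6 and Errfi1 had 7 each. Ets2, Atf7ip, Irf2bp2, Siah1a, a ubiquitin ligase, and Adamtsl4, a secreted matrix protein, had 6 each. The 6 members of Ets2 were 6 separate runs at 22764 to 72137 bp, while those of Adamtsl4 formed 3 runs at 11966 to 14379 bp.

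Of the 21 gene lists, the immediate early and the glucocorticoid and clock lists had the most members for the DNA around their genes. Overlapping peaks were counted separately, and the order of these lists depends on that. Immediate early genes are switched on soon after a stimulus. Of the 25 immediate early genes 10 (40.0%, exact 95% interval 21.1% to 61.3%) were nearest to a member, against the 3.68% of all genes, with 32 members together. The distal intergenic DNA nearest to these 25 genes came to 1.48 Mb, so they had 21.7 members per Mb, against 2.19 over all genes. Under the alternatives tried, 7 to 11 of the 25 had a member. Zfp36l1, a protein that destabilises messenger RNA, had 5 members in 3 runs, the strongest at 39.3 (21.6 in replicate 1, 17.3 in replicate 2), and all 5 were in the conservative set. Fos had 4 members at 17689 to 58833 bp, and Klf6 had 7 at 15598 to 57849 bp. The promoter of each of these 3 genes had a peak as well.

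The list of genes that respond to glucocorticoid or belong to the circadian clock had 16 members and 20.5 per Mb, near 5 of 20 genes (4 to 6 under the alternatives). Errfi1, a feedback inhibitor of the EGF receptor that is also counted in the EGF list, had 7 members at 54133 to 96526 bp upstream, the strongest at 51.6 (30.05 and 25.8). Tsc22d3 had 3 members, all in the conservative set. Cebpb, a factor of differentiation and acute response, had 2, the stronger at 76.5 (43.0 and 34.4). Of the 39 members with the glucocorticoid receptor palindrome, 2 were nearest to a gene of this list, those of Tsc22d3 and Klf9. That is 5.13%, and of the 1224 members without the palindrome 14, or 1.14%, were nearest to a listed gene. The others lay near 37 further genes, Grhl2 and Gadd45g, a stress-response gene, among them. Those 39 members had signals of 13.1 to 142, and both libraries had a summit inside 37 of them. Of the EGF and ERK feedback list 4 of 20 genes had a member (7.002 per Mb), with Spry1, an inhibitor of receptor tyrosine kinase signalling, at 2 and Tgfa, a ligand of the EGF receptor, at 1. That count was 9 among the strongest peaks of replicate 2 alone, 7 among those of replicate 1 alone, and 2 where members had to be over 20 kb away.

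**Figure D5:**
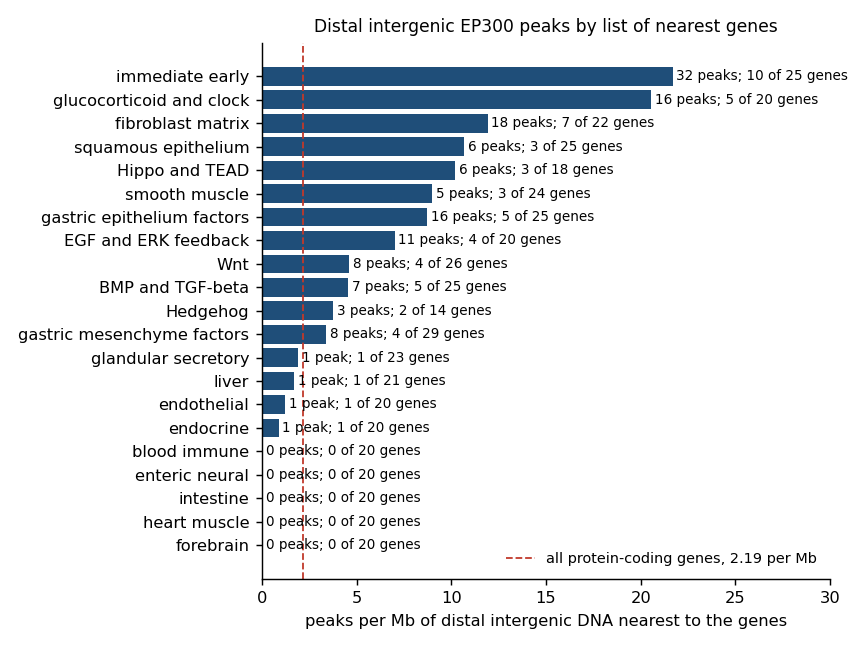
Number of distal intergenic EP300 peaks per Mb of distal intergenic DNA nearest to the genes of each list (bars, horizontal axis), with the number of peaks and of genes that have one, and the value over all protein-coding genes as a dashed line at 2.19 per Mb. Immediate early genes and glucocorticoid and clock genes stand highest, at 21.7 and 20.5 per Mb. The lists of blood, enteric nerve, intestine, heart and forebrain have none, in 0.311 to 1.23 Mb of such DNA each. Overlapping peaks are counted separately.

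Epithelial genes had members in moderate number. Of 25 transcription factors of the gastric epithelium 5 (20%) were nearest to a member, with 16 members and 8.74 per Mb, and the count was 9 among the strongest peaks of replicate 1 alone. Klf5, a factor of proliferating epithelium, had 5 members at 37652 to 93171 bp, the strongest at 32.5 (19.7 and 14.2). Grhl2, which codes for a Grainyhead-like factor, had 4 members at 30694 to 40088 bp upstream, all in the conservative set, the strongest at 58.3 (37.9 and 22.3) with a glucocorticoid receptor and an AP-1 match. Foxq1, a forkhead factor of surface mucous cells, had 3, the strongest at 53.4 (25.6 and 31.1). The mouse forestomach is lined by squamous epithelium, and of 25 genes of that tissue 3 had a member (10.7 per Mb, 5 among the strongest peaks of either replicate alone): Perp and Dsg3, both of the desmosome, and Grhl3, with 2 each. Of the 23 glandular secretory genes, which include the mucins and the proton pump, 1 had a member, Kcne2, a potassium channel subunit of parietal cells (28.7, 11.96 and 17.3). Of 20 endocrine genes 1 had one, Neurod1, a factor of hormone-producing cells (36.6, 19.1 and 15.6).

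Among genes of the stomach wall, those of the fibroblast matrix stood highest, with 7 of 22 genes (31.8%), 18 members and 11.9 per Mb. Col1a2 and Col6a2, chains of collagen I and VI, had 4 members each and Col6a3 had 3. Their strongest members had pooled signals of 28.1, 27.4 and 28.1, below the member median of 29.6, and only 3 of the 22 genes had a member when the optimal set was limited to peaks at or above its median. Of 24 smooth muscle genes 3 had a member (1 among those stronger peaks). Acta2, smooth muscle actin, had a pair of overlapping members 10197 and 10400 bp upstream, the stronger at 52.9 (23.3 and 26.3) with a CArG box and an AP-1 match. Itga8, an integrin subunit, had 2 with a top signal of 23.0, and Myocd, the co-activator of serum response factor, had 1 of 27.3 at 98130 bp. Of 29 mesenchymal transcription factors 4 had a member (3.38 per Mb, 2 among the strongest peaks of replicate 2 alone and 2 without non-coding gene bodies). Pitx1, a homeobox factor, had 4, the strongest at 59.6 (26.3 and 29.5) with a CArG box, Nr2f2, an orphan nuclear receptor, had 2, and Barx1, a homeobox factor required for stomach identity, had 1 of 43.4 (26.3 and 24.5) at 94004 bp.

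Members also lay near genes of signalling pathways of stomach development. In the BMP and TGF-beta list 5 of 25 genes had a member (4.56 per Mb): Id2, a BMP-induced inhibitor of basic helix-loop-helix factors, and Tgfbr2, the type II receptor, had 2 each, and Smad3, the signal transducer, had 1 of 47.0 (22.9 and 22.7) with a GRHL match. In the Wnt list 4 of 26 had one (4.61 per Mb, 2 without members near RefSeq starts), with the ligand Wnt4 and the secreted antagonist Sfrp1 at 3 each and the ligand Wnt7b at 1. In the Hedgehog list 2 of 14 had one (3.75 per Mb), both of them co-receptors, Gas1 with 2 and Boc with 1. Replicate 1 had no summit inside the strongest member of either. In the Hippo and TEAD list 3 of 18 had one (10.2 per Mb, none among the stronger peaks). Amotl2, an inhibitor of YAP, had 4 members in 1 run with a top signal of 16.9, and Vgll4 and Tead1, a rival partner of TEAD factors and a TEAD factor, had 1 each of 27.1 and 26.2.

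Lists for other cell types and organs were near or below the value of all genes. Egfl7 was the 1 of 20 endothelial genes with a member (40.2, 22.01 and 18.97), and Cyp7a1, the bile acid enzyme, the 1 of 21 liver genes (23.7, 10.996 and 14.3). None of the 20 genes each of enteric nerve and glia, blood and immune cells, intestine, heart and forebrain was nearest to a member, and for each list the exact 95% interval of that share reaches 16.8%. The distal intergenic DNA nearest to these lists came to 1.12, 0.311, 0.803, 0.697 and 1.23 Mb in that order. At the 2.19 per Mb of all genes few members would lie near any of them. The lists are small, and their counts are set beside the 3.68% of all genes as a description, with no test.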

How the data were processed

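EP300 chromatin immunoprecipitation was sequenced in 2 libraries of newborn mouse stomach. The authors deposited 5 narrowPeak lists on mm10: replicate 1, replicate 2 and pooled reads (300000 peaks each), and the optimal (7737) and conservative (6974) IDR sets. Column 7, used here, is the deposited signal, in units of the authors' peak caller that are not normalized between lists. The deposited IDR score and q column, also kept as a score, were not used. The deposited summit position counts bases from where the peak begins. The caller and aligner were not given in the sources used here, and without read counts the depth is unknown and intervals cover counting of peaks only.

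Positions are 1-based, with genes from GENCODE M21 and sequence and RefSeq transcript starts from GRCm38.p6. A library's value for a member is the strongest of its peaks with a summit inside, and overlapping members can share one. Upstream and downstream refer to the strand of the nearest start. The DNA that meets a rule was counted at every 10 bp outside assembly gaps. Unplaced sequences held 4 optimal peaks, which were not used. Peak classes were compared by two-sided Fisher's exact tests and summits with flanks by the exact McNemar test, with Benjamini-Hochberg adjustment and a threshold of 0.05, in Python 3.11.15 with scipy 1.17.1. The flank lay 1000 bp away, on alternating sides from summit to summit. Ratios and odds ratios on the log2 scale have 0.5 added to each count. The motif tests were tested on simulated windows. Named genes are those nearest to the 15 strongest members, the 10 with most members and up to 3 per list, with the 8 highest-ratio motifs; FOX, TEAD, TFAP2, the single NFI site, motifs that did not pass, the hosts of members, Neat1, Csnk1a1, Gadd45g and Klf9 were chosen after their values were seen. Results for 1 named gene are not given. Members, motifs and lists were chosen with earlier results of these data known. Of the list symbols, 4 (Bapx1, Dpcr1, Ctgf, Cyr61) did not match. The 14 alternatives were other peak sets, the 7737 strongest peaks of each replicate alone, 1 peak per run, other distances, non-coding rules, windows and flanks. Of these, the 3 on RefSeq starts, pseudogene starts and weak peaks were added after seeing the data.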

Additional observations from a re-analysis of the deposited data

How the results depend on the processing

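The share of members, 16.3%, was 12.01% with summits over 20 kb from starts, 13.7% without non-coding gene bodies, 17.8% without the rule on non-coding starts and 15.4% without members near RefSeq starts; with 1 replicate alone it was 15.4% or 16.8%. The log2 odds ratio for strength against distal introns, 0.14, was 0.33 with 1 peak per run, and 0.24 to 0.33 with 1 replicate alone. Against peaks beyond 100 kb it was 0.17 with 1 peak per run, 0.013 with a signal of 10 or more, and 0.16 to 0.36 with 1 replicate alone, where the value with all peaks was -0.04. Against peaks 1 to 10 kb from starts, 0.14, it was -0.035 to 0.13 with 1 replicate alone. For presence in the conservative set, 0.25, it was 0.27 without the rule on non-coding starts (exact test, adjusted p = 0.0415). For summits in repeats, 0.06, it was -0.051 in the conservative set, -0.028 over 20 kb and -0.13 to -0.11 with 1 replicate alone; none of these passed.

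Where 15 motifs were more frequent at summits, 7 were in peaks at or above the median signal, all of them among the 15, and 9 over 20 kb, 8 of them among the 15. With 1 replicate alone 12 or 13 motifs passed, 11 of them among the 15 in each case. The CRE had a log2 ratio of 0 to 1.585 with 1 replicate alone. The number of less frequent motifs, 1, was 0 in the stronger peaks, with 1 peak per run, over 20 kb, with windows of 50 bp and with mostly masked windows left out. It was 2 with the flank 2000 bp away or without members near RefSeq starts, and 1 with each replicate alone. With replicate 1 alone, without non-coding gene bodies and with pseudogene starts avoided, the motif counted was not the E-box CATATG, which did not pass. Motifs that differed from peaks beyond 100 kb were 1 in the stronger peaks (GRHL). Those that differed from peaks 1 to 10 kb away were 1 in the stronger peaks (TFAP2), with 1 peak per run (single NFI site) and over 20 kb (glucocorticoid receptor), and 4 with mostly masked windows left out. The number of nearest genes, 805, was 495 in the stronger peaks and 2054 for every gene with a start within 100 kb. The cause of these changes was not tested; the sets of stronger peaks, single runs and summits over 20 kb hold fewer members (601, 1018 and 929). No paired analysis was possible because the series holds 1 group. Read depth is unknown.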
